A study of Homo sapiens with 4 samples.

Results

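Immediate-early genes and the phosphatases that restrain MAP kinases were followed in the cytoplasmic RNA of SUM159 cells after inhibition of splicing. Of the 10 genes named for this set, 7 had introns in the deposited tables and all 7 are described: FOS, EGR1, MYC, SRF, DUSP1, DUSP4 and DUSP5. They are 7 of 15902 genes and hold 19 of the 142206 introns with both counts. FOSL1, IER3 and DUSP6 were not analysed here. SUM159 is an established line grown from a human triple-negative breast tumour. The cells received H3B-8800, a drug that binds the SF3b part of the spliceosome and blocks splicing, or its vehicle DMSO for 12 hours, with 2 libraries of polyadenylated RNA of the cytoplasmic fraction per group, described as biological duplicates. In bulk RNA of this kind, fewer cells that express a gene and less of its RNA per cell cannot be told apart.

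Immediate-early genes are transcribed within minutes of a growth signal without new protein synthesis. In the best known route, the kinases of the ERK cascade activate partners of the serum response factor SRF, which sits on a DNA element called the CArG box and switches on FOS and EGR1. The dual-specificity phosphatases (DUSPs) are made in response to the same signal and remove the phosphates from MAP kinases, which ends it. The mRNAs of most of these genes are short-lived, so their level follows recent transcription, processing and decay.

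For each intron the tables gave the reads inside it (intronic reads) and allowed the reads that cross it from exon to exon to be computed (spliced reads). Levels of spliced reads are given as CPM, counts scaled to a common library size after allowing for library composition. The DMSO libraries held 64000000 reads each, and those of treated cells held 58000000 and 62000000. Of the line's expected genes, VIM, CD44, AXL, CAV1, TGFBI and KRT18 had 9.32 to 6075 CPM in the 4 libraries. ESR1, PGR, CD3E and ALB had 0 spliced reads in every library, EPCAM, CDH1 and VWF had at most 1.04 CPM, and PECAM1 had 1.88 to 4.99 CPM.

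Promoter stretches and exon junctions of some of the genes are given as sequence. The promoters were only searched for 2 motifs, and binding or activity was not tested. The promoters are given as stretches of 150 bases directly before the transcription start, from the RefSeq promoter table on GRCh38.p14, in which capitals mark a CArG box (the SRF element) or the palindrome TGACGTCA (the full cAMP response element). They lie at chr5:138465329-138465478 (EGR1, plus strand), chr6:43171119-43171268 (SRF, plus strand) and chr5:172771196-172771345 (DUSP1, minus strand).
EGR1 promoter: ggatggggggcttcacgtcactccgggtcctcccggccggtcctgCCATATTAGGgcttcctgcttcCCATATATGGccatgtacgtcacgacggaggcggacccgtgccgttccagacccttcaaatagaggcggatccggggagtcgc
SRF promoter: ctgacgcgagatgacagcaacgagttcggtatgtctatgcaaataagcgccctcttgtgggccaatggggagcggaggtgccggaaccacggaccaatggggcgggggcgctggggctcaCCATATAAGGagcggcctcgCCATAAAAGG
DUSP1 promoter: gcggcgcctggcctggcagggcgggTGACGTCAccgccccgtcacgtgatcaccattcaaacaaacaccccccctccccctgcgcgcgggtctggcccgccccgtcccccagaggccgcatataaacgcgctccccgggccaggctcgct

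EGR1 had 2 CArG boxes, which began 105 and 83 bases before its start, and SRF had 2, which began 30 and 10 bases before its first listed start. DUSP1 had no CArG box in its window and 1 TGACGTCA, which began 125 bases before the start. As search patterns, both motifs match the same places on either strand. A given CArG box need not read the same on both strands. The marked motifs do not overlap each other here. Over 35116 promoter windows of 300 bases (250 before and 50 after the start), 1.29% held a CArG box and 1.85% held TGACGTCA. The FOS window held neither, and neither did the second SRF window. Sequence outside the windows was not searched, so an element farther from a start would be missed. The table matched 4 of the 7 genes; DUSP4, DUSP5 and MYC had no entry. Spliced reads of EGR1 fell and those of SRF rose, as given below. Whether the motifs bear on these changes was not tested.

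The exon junctions are those that a spliced read has to cross, 15 bases on each side, from GENCODE 29 transcripts on GRCh38. Small letters are the upstream exon and capitals the downstream exon. Both sides are coding sequence, and each junction is shown because a result below is read at it.
EGR1 junction over intron 1: agcacctgaccgcagAGTCTTTTCCTGACA
SRF junction over intron 2: agtggggagaccaagGACACACTGAAGCCG
DUSP1 junction over intron 3: ccattgacttcatagACTCCATCAAGAATG
DUSP5 junction over intron 3: caatagacttcattgACTGTGTCAGGGAAA

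The genes differed widely in level, and the order was the same in both groups. Levels were divided by the number of listed introns, which only roughly allows for different numbers of introns. Junctions of 1 gene differed widely, in SRF with DMSO from 3.37 CPM at intron 5 to 23.8 at intron 2. The order of genes close in level can thus depend on which junctions were listed. Per listed intron, spliced reads with DMSO were 31.2 ± 2.1 CPM in MYC, 12.3 ± 1.0 in DUSP1 and 9.48 ± 0.18 in SRF. They were 8.12 ± 0.98 CPM in DUSP5, 5.43 ± 0.20 in EGR1, 0.748 ± 0.074 in DUSP4 and 0.162 ± 0.033 in FOS (SD, n = 2 each). With H3B-8800 the same order ran from 24.9 ± 1.9 CPM in MYC to 0.215 ± 0.19 in FOS. The DMSO levels of SRF and DUSP5 were neighbours that differed by little more than their spread. FOS was close to absent in both groups.

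Spliced reads moved in both directions among these genes. Of the 7 genes, 6 reached a mean of 1 CPM and were tested. EGR1, MYC and DUSP5 had fewer spliced reads with H3B-8800, SRF and DUSP1 had more, and DUSP4 did not pass (quasi-likelihood test of edgeR, threshold of 0.05 on p after BH, or Benjamini-Hochberg, adjustment). Over all 9468 genes tested, 32.8% were higher and 32.7% lower. Over the 3518 tested genes that likewise had 1 to 5 listed introns, 33.1% were higher and 23.4% lower. The median log2 change was 0.08 over the 6 genes and 0.01 over all tested genes. With 2 higher and 3 lower, the set is close to the background of a table in which most genes changed, and it has no common direction.

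**Figure D1:**
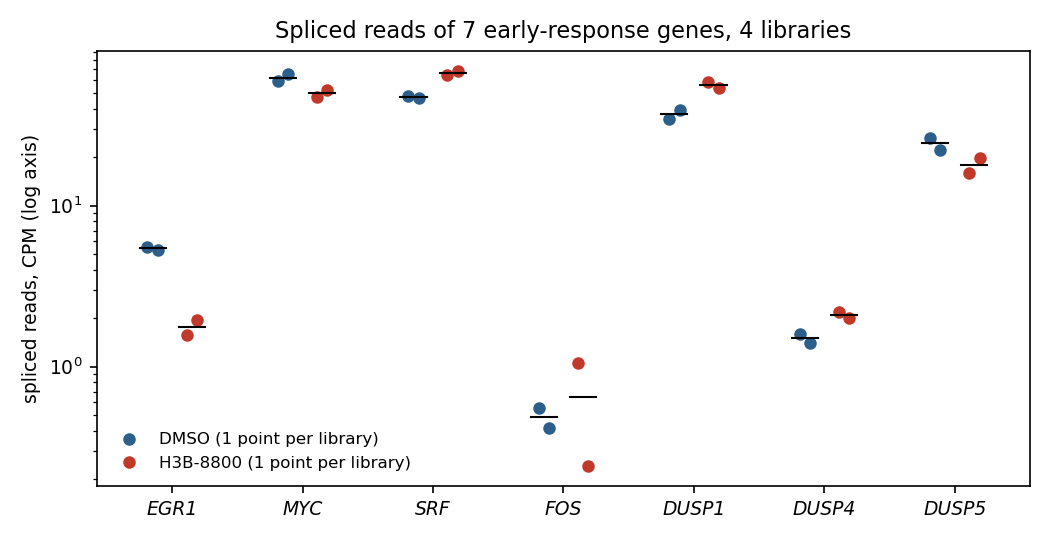
Spliced reads of the 7 genes in CPM (log axis), 1 point per library, DMSO in blue and H3B-8800 in red, with black bars for the mean of the 2 libraries. EGR1 sits at 5.29 and 5.57 CPM with DMSO and 1.57 and 1.93 CPM with H3B-8800, while the points of FOS overlap between groups.

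EGR1, a zinc finger transcription factor and a classical first responder to ERK signalling, showed the largest change of the 6 tested genes. Its 1 intron (chromosome 5, 138466069 to 138466756, 688 bp, plus strand) was crossed by 80 and 76 spliced reads with DMSO and by 18 and 24 with H3B-8800. The groups are far apart and the replicates close. The level went from 5.43 ± 0.20 to 1.75 ± 0.25 CPM (SD, n = 2 each), a 3.08-fold fall with a log2 change of -1.62 (SE 0.30; edgeR adjusted p = 3.69e-04). Intronic reads were 2 and 2 with DMSO and 0 and 1 with H3B-8800, too few for a test. No gain of intronic EGR1 reads accompanied the loss of spliced ones, though a small gain would not have been detectable at this depth. The fall passed whichever single library was left out, and the log2 change ran from -1.78 to -1.48.

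MYC, a helix-loop-helix factor that drives growth and proliferation genes, had fewer spliced reads but about the same number of intronic reads. Spliced reads over both introns numbered 854 and 938 with DMSO and 538 and 652 with H3B-8800. Both H3B-8800 libraries lie below both DMSO libraries. The level went from 62.3 ± 4.15 to 49.8 ± 3.87 CPM (SD, n = 2 each), which is a log2 change of -0.32 (SE 0.09; edgeR adjusted p = 0.00473). The fall was small, and it did not pass without H3B-8800 replicate 1 (-0.25, adjusted p = 0.0860) or without DMSO replicate 2 (-0.26, adjusted p = 0.0594; alternatives ran from 1.31e-04 to 0.629).

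Inside the MYC introns, reads numbered 63 and 71 with DMSO and 52 and 59 with H3B-8800. Most were in intron 1 (chromosome 8, 127736624 to 127738247, plus strand), with 47 and 58 against 46 and 49 reads, or 0.505 ± 0.075 against 0.488 ± 0.0012 RPKM, which scales reads to intron length and library total (SD, n = 2 each). Intron 2 (chromosome 8, 127739020 to 127740395) had 16 and 13 with DMSO and 6 and 10 with H3B-8800. The per-gene intronic change was -0.18 on the log2 scale (SE 0.28; edgeR adjusted p = 0.587) and did not pass. The median gene of the table rose by 1.04 on the same scale. When intronic reads were scaled to the composition of all intronic reads (TMM, which centres their median change near 0), MYC was lower by 1.20 (log2 change -1.20, SE 0.27; edgeR adjusted p = 0.00110; alternatives ran from 0.00110 to 0.836). On that scale 1587 of the 7900 genes were lower, so the call was shared with many genes. On the unshifted scale, the MYC value was at percentile 11.4 of all tested genes. As a share of its reads, intronic reads of MYC were 6.95% ± 0.12 with DMSO and 8.56% ± 0.36 with H3B-8800 (SD, n = 2 each). Neither intron overlaps an annotated exon, with transcripts annotated as retained introns left out of that check.

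SRF, the MADS-box factor that binds the CArG box, had more spliced reads and more intronic reads. Spliced reads over its 5 listed introns numbered 690 and 672 with DMSO and 737 and 856 with H3B-8800. In CPM, which allows for the size and composition of the spliced reads of each library, they were 48.0 and 46.8 against 64.5 and 69.0. The log2 change was 0.49 (SE 0.08; edgeR adjusted p = 8.76e-05). Introns 2 to 6 of the transcript were listed, and intron 1 was not analysed here. Spliced reads were unevenly spread, with 368 and 315 at intron 2 (chromosome 6, 43174114 to 43175705) and 46 to 118 at each of introns 3 to 6 with DMSO. Without intron 2 the rise was 0.45 (SE 0.11), so it was not carried by that junction alone.

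Intronic reads of SRF were 5 and 4 with DMSO and 28 and 27 with H3B-8800, a log2 change of 2.67 (SE 0.61; edgeR adjusted p = 6.75e-04). The counts are small but do not overlap. By intron they were sparse and uneven. Intron 2 had 0 and 0 reads with DMSO and 6 and 13 with H3B-8800, and intron 6 had 0 and 0 against 2 and 3. Intron 3 had 0 and 2 against 8 and 3, and intron 5 had 3 and 0 against 10 and 4. Intron 4 had 2 and 2 against 2 and 4, where the groups touch. No single SRF intron reached the mean of 10 reads needed for a test. As a share of intronic plus spliced reads, intronic reads went from 0.656% ± 0.090 to 3.36% ± 0.43 (SD, n = 2 each). The intronic-to-spliced ratio rose by 2.35 (SE 0.48; edgeR adjusted p = 4.49e-04). Reads inside and across SRF introns thus both rose, the former by more.

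FOS, the AP-1 subunit that names the class, was barely present. Its 3 introns (chromosome 14, from 75279124 to 75280782, plus strand) were crossed by 8 and 6 spliced reads with DMSO and by 12 and 3 with H3B-8800. The H3B-8800 libraries fall on both sides of the DMSO libraries. The gene stayed under the minimum of 1 CPM and was not tested; with no minimum its change did not pass (edgeR adjusted p = 0.745). Intronic reads were 0 and 0 with DMSO and 2 and 0 with H3B-8800. Parts of all 3 FOS introns are exonic in other annotated transcripts.

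**Figure D2:**
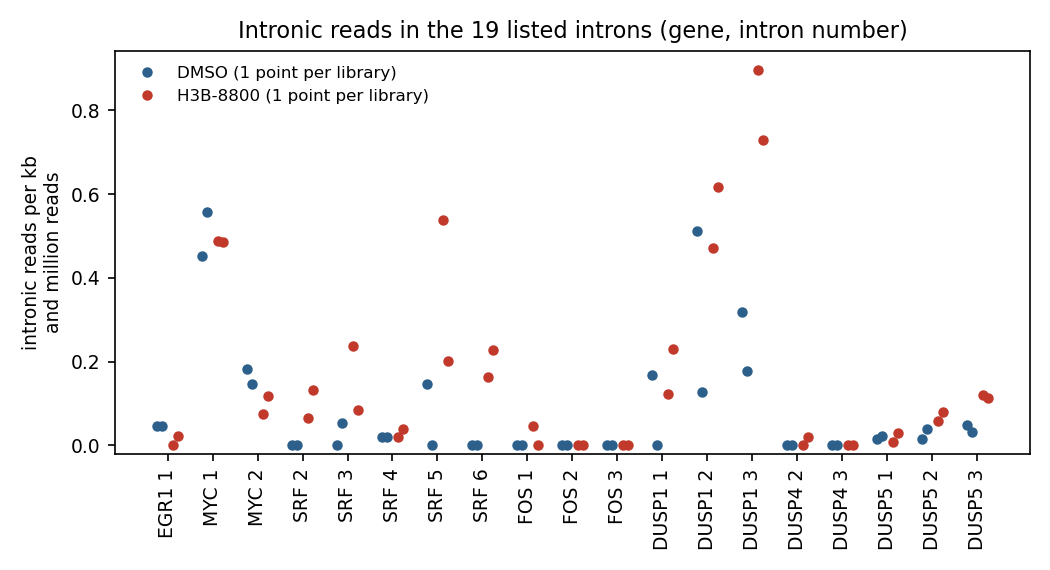
Intronic reads of the 19 introns scaled to intron length and library total (RPKM), 1 point per library, DMSO in blue and H3B-8800 in red. Intron 3 of DUSP1, introns 2 and 3 of DUSP5 and all listed SRF introns have both red points above both blue points. In SRF intron 4 the gap is small. Intron 1 of MYC is high in both groups.

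Among the phosphatases, DUSP1 rose, DUSP5 fell and DUSP4 was too low to judge. DUSP1 encodes a nuclear phosphatase of p38, JNK and ERK that is itself an immediate-early gene product. Its spliced reads numbered 498 and 561 with DMSO and 672 and 670 with H3B-8800. The level went from 36.8 ± 3.1 to 56.4 ± 3.4 CPM (SD, n = 2 each), which is a log2 change of 0.61 (SE 0.09; edgeR adjusted p = 4.73e-05), and the groups do not overlap. The rise was seen at each of its 3 junctions, with CPM ratios of 1.94, 1.38 and 1.47 from intron 1 to intron 3. With the count of its least-read junction subtracted from all 3, the change was -0.00087 (SE 0.32; edgeR adjusted p = 0.999; alternatives ran from 3.05e-06 to 0.999), a setting that removes most of the reads of a gene with few introns.

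The intronic reads of DUSP1 were less certain than its spliced reads. They numbered 24 and 8 with DMSO and 35 and 38 with H3B-8800, a log2 change of 1.28 (SE 0.47; edgeR adjusted p = 0.0234). The DMSO libraries differed by more than the distance from the higher of them to H3B-8800. Without DMSO replicate 2 the change was 0.69 and did not pass (adjusted p = 0.208; alternatives ran from 7.39e-04 to 0.705). Leaving out either H3B-8800 library ended the call too (1.29, adjusted p = 0.305, and 1.26, adjusted p = 0.321). In intron 3 (chromosome 5, 172769133 to 172769574, minus strand), the last and most-read one, intronic reads were 9 and 5 with DMSO and 23 and 20 with H3B-8800. Their change of 1.70 (SE 0.58) passed, with an adjusted p = 0.0291, but it did not pass without either H3B-8800 library, without DMSO replicate 2 (adjusted p = 0.0923) or with a replicate block (adjusted p = 0.0513; alternatives ran from 0.0155 to 0.388). For the gene as a whole the intronic-to-spliced ratio changed by 0.85 (SE 0.44, adjusted p = 0.0993), which did not pass, but it did with the replicate block (0.88, adjusted p = 0.0462) and without DMSO replicate 1 (1.91, adjusted p = 0.00629; alternatives ran from 0.00629 to 0.730).

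DUSP5, a nuclear phosphatase specific for ERK, combined fewer spliced reads with more intronic reads. Spliced reads numbered 380 and 320 with DMSO and 183 and 246 with H3B-8800, or 24.4 ± 2.95 against 17.9 ± 2.70 CPM (SD, n = 2 each). The groups do not overlap, but the replicates of each differ by several CPM. The log2 change was -0.44 (SE 0.14; edgeR adjusted p = 0.0120). It did not pass without H3B-8800 replicate 1 (-0.30, adjusted p = 0.167) or DMSO replicate 1 (-0.31, adjusted p = 0.146; alternatives ran from 7.15e-04 to 0.191). The loss was uneven along the gene. The CPM ratio was 0.701 at intron 1, 0.882 at intron 2 and 0.559 at intron 3.

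Intron 3 of DUSP5 (chromosome 10, 110507155 to 110510019, 2865 bp, plus strand), the last intron, carried the clearest change. It was crossed by 128 and 122 spliced reads with DMSO and by 54 and 62 with H3B-8800. Intronic reads in it numbered 9 and 6 with DMSO and 20 and 20 with H3B-8800. The ratio of intronic to spliced reads was higher by 2.51 in log2 units (SE 0.53; edgeR adjusted p = 0.00178), and it passed in all 6 alternatives that tested it. The ratio also rose in intron 2 (110502870 to 110506934), by 1.71 (SE 0.58, adjusted p = 0.0244), with 4 and 10 intronic reads against 14 and 20. Leaving out DMSO replicate 1 or either library of treated cells ended that call (adjusted p = 0.163, 0.103 and 0.114; alternatives ran from 0.00920 to 0.163), and intron 2 overlaps an annotated exon on its own strand. Intron 1 had 4 and 6 against 2 and 8 and was too sparse to test. Over the gene, the share of intronic reads went from 5.36% ± 1.5 to 16.4% ± 0.079 (SD, n = 2 each), and the ratio rose by 1.80 (SE 0.37; edgeR adjusted p = 5.40e-04). The ratio of the gene passed whichever library was left out; its intronic reads alone (1.19, SE 0.40, adjusted p = 0.0130) did not pass without either H3B-8800 library (adjusted p = 0.0888 and 0.132) or without DMSO replicate 1 (0.0541; alternatives ran from 0.0105 to 0.771).

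DUSP4, another nuclear phosphatase of the family, had 23 and 20 spliced reads with DMSO and 25 and 25 with H3B-8800 over introns 2 and 3 of its transcript. Its log2 change of 0.49 (SE 0.39; edgeR adjusted p = 0.292) did not pass. Intronic reads were 0 and 0 with DMSO and 0 and 2 with H3B-8800. Intron 1 of DUSP4 was not analysed here.

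Set side by side, the 4 genes with enough intronic reads did not respond alike. Of these, SRF, DUSP1 and DUSP5 had more intronic reads with H3B-8800 and MYC did not pass, against 58.3% higher and 4.37% lower among the 7900 genes tested. The gene's intronic-to-spliced ratio was higher in SRF and DUSP5 and did not pass in MYC (0.32, SE 0.28, adjusted p = 0.311) and DUSP1, where 65.4% of the 7566 tested genes were higher and 2.35% lower, with a median change of 1.35. Of the 19 introns, 5 had enough reads for the intron tests. Of these 5, 2 had more intronic reads (of 12013 introns, 48.2% were higher and 5.74% lower) and 3 a higher ratio (of 9937, 56.5% were higher and 2.88% lower). Without either H3B-8800 library the fit of intronic reads called no gene in the whole table (edgeR, 3691 and 3538 genes at an unadjusted p under 0.05), so the loss of SRF, DUSP1 and DUSP5 there is not particular to them. SRF had adjusted p = 0.0602 and 0.0611 in those fits. With TMM scaling of intronic reads SRF still passed (1.66, adjusted p = 0.0387), while DUSP1 (0.26, adjusted p = 0.705) and DUSP5 (0.17, adjusted p = 0.771) did not. DESeq2 did not call the intronic reads of DUSP1 and DUSP5 either (adjusted p = 0.101 and 0.0740).

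**Figure D3:**
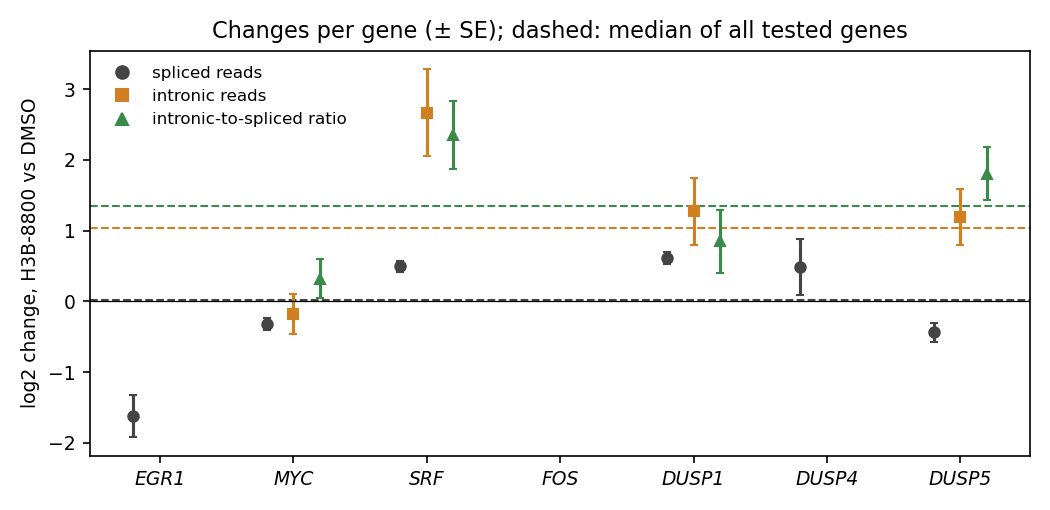
Log2 change with H3B-8800 against DMSO per gene for spliced reads (circles), intronic reads (squares) and their ratio (triangles), with bars of 1 SE and dashed lines at the median of all tested genes. SRF and DUSP5 have ratios of 2.35 and 1.80, above the median of 1.35, while MYC has 0.32.

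Other early-response genes moved in both directions. Of 34 listed, 26 had introns in the tables and 18 were tested; 8 rose and 5 fell, with a median log2 change of 0.27, against 32.8% higher and 32.7% lower over all genes. The falls were less firm than the rises: 2 or 3 genes were lower when any 1 library was left out (3 without H3B-8800 replicate 1 and 2 without each of the others), 2 with DESeq2, 3 with introns that overlap no exon or at a minimum of 5 CPM, 1 without the most-read intron and 0 with the least-read count subtracted (5 then higher). Scaled to library totals, 7 rose and 5 fell and the median was 0.09. SGK1, a growth factor-induced kinase, went from 24.6 ± 1.7 to 65.9 ± 2.0 CPM (SD, n = 2 each). Its log2 change was 1.42 (SE 0.09, edgeR adjusted p = 1.69e-08). VCL, a focal adhesion protein, rose by 0.89 (SE 0.08). KLF6, a zinc finger factor, fell by 1.06 (SE 0.22) and CYR61, now CCN1, a secreted matrix protein, by 0.25 (SE 0.06). FOSL2, a FOS-family subunit of AP-1 named here after its values were seen, rose by 0.61 (SE 0.10). JUN, JUNB and JUND were not analysed here.

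Of 15 further dual-specificity phosphatases, 9 were tested. Of these, 3 rose, 2 fell and 4 did not pass, against 32.8% higher and 32.7% lower over all genes. The median log2 change was 0.01, or -0.16 when libraries were scaled to their totals (3 higher and 3 lower). Leaving out DMSO replicate 1 or either library of treated cells left 1 lower. DUSP12 went from 69.5 ± 5.3 to 147 ± 3.7 CPM of spliced reads, a log2 change of 1.08 (SE 0.07; edgeR adjusted p = 2.92e-08), and DUSP10, which acts on p38 and JNK, rose by 1.04 (SE 0.21). DUSP23 fell by 0.77 (SE 0.09) and DUSP22 by 0.76 (SE 0.20). Of 7 tested inhibitors of RAS and ERK signalling, 4 rose and 1 fell, against the same shares over all genes. Their median was 0.35, or 0.17 when scaled to library totals with the counts as before. NF1, a GTPase-activating protein for RAS, rose by 1.52 (SE 0.12) and SPRED1, which brings NF1 to the membrane, by 1.20 (SE 0.13), while RASA1, another GTPase-activating protein for RAS, fell by 0.70 (SE 0.06).

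Upstream of these genes lie the ERK cascade and the SRF cofactors. Of 22 tested, 14 rose and 4 fell, with a median log2 change of 0.60, or 12 and 5 with a median of 0.42 when libraries were scaled to their totals (over all genes, 32.8% were higher and 32.7% lower). The count of rises was 8 of 21 with the least-read count subtracted, 10 of 20 without the most-read intron, and 11 or 12 of 22 when 1 library was left out. SOS1, the exchange factor that loads RAS, rose by 1.07 (SE 0.08) and ETV5, an ETS factor, by 0.93 (SE 0.08). The kinase gene MAP2K2, which encodes MEK2, went from 558 ± 8.3 to 275 ± 4.3 CPM of spliced reads, a log2 change of -1.02 (SE 0.04; edgeR adjusted p = 1.29e-09). RPS6KA1, an ERK-activated kinase, fell by 1.65 (SE 0.09). In both, the intronic-to-spliced ratio rose, by 2.62 (SE 0.19) in MAP2K2 and by 2.34 (SE 0.43) in RPS6KA1.

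**Figure D4:**
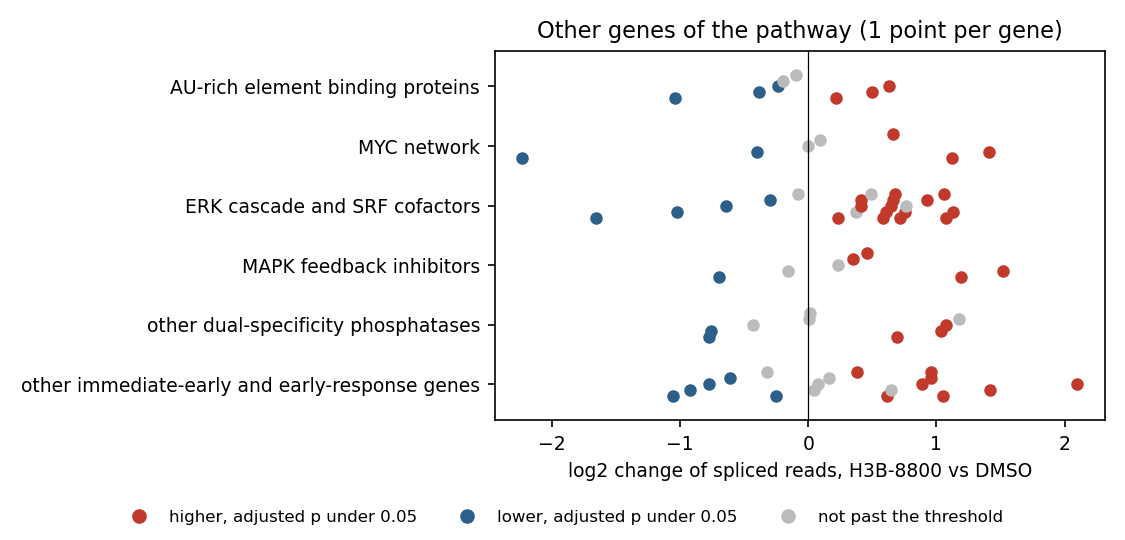
Log2 change of spliced reads (x axis) for the tested genes of 6 pathway lists (y axis), 1 point per gene, red for higher and blue for lower at an adjusted p under 0.05 and grey for the rest. Each list has points on both sides of 0, with 14 red and 4 blue points in the ERK cascade and SRF cofactors.

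The partners and rivals of MYC were mixed as well: of 7 tested, 3 rose and 2 fell (over all genes, 32.8% were higher and 32.7% lower). Their median was 0.09, or -0.08 when scaled to totals. The median was also below 0 with introns that overlap no exon (-0.02) and with the least-read count subtracted (-0.05, 3 higher and 1 lower). MXI1, which competes with MYC for its partner MAX, rose by 1.41 (SE 0.17) and MGA, a MAX-binding repressor, by 1.13 (SE 0.17). MXD3, another MAX partner, went from 9.88 ± 0.69 to 2.10 ± 0.12 CPM of spliced reads, a log2 change of -2.23 (SE 0.24; edgeR adjusted p = 3.02e-06), and MLX fell by 0.40 (SE 0.08). Of 8 proteins that bind the AU-rich elements of short-lived mRNAs, 3 rose and 3 fell, against the same shares over all genes. Their median was -0.15. The median was 0.28 over the 5 still tested without the most-read intron, 0.10 over the 5 tested with the least-read count subtracted (2 higher and 1 lower), and 0.06 over the 6 tested with introns that overlap no exon. HNRNPD and KHSRP, which promote decay, fell by 1.04 (SE 0.04) and 0.23 (SE 0.04), and the translational repressors TIA1 and TIAL1 rose by 0.63 (SE 0.10) and 0.50 (SE 0.05).

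Scaling affected the sizes but not the directions of the tested immediate-early genes and phosphatases. Scaling to library totals took the median gene from 0.01 to -0.16 in log2 units and the share of rises among calls from 50.04% to 36.2%. On that scale EGR1 changed by -1.80, MYC by -0.50 and DUSP5 by -0.62, and DUSP1 and SRF rose by 0.44 and 0.32. All 5 still passed.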

How the data were processed

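Libraries were strand-specific and made from polyA-selected cytoplasmic RNA, per the labels' protocols. Per the submitters' processing notes, HISAT2 2.0.4 was used and hg38 and mm10 were the genomes given; the counting tool and its strand setting are not given in the sources used here. Each deposited file holds 2 raw counts and an RPKM value for each of 142224 introns, without a header. The deposited RPKM was used only to recover the library total by which the authors scaled it. The second count was never below the first; the excess was taken as spliced reads, an inference from the values. A read that crosses several introns counts at each, and 70.9% to 72.3% of non-zero intronic counts were even, so mates were probably both counted. Introns without a second count (18) were left out. Deposited coordinates include 1 exon base at each end, which was trimmed. Of the trimmed introns, 99.9% are introns of GENCODE 29 on GRCh38. Overlap with annotated exons was checked throughout without the exons of transcripts annotated as retained introns.

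Spliced and intronic reads were summed per gene. Tests were edgeR's quasi-likelihood tests (edgeR 4.0.16, R 4.3.3) over all genes or introns of the table, with Benjamini-Hochberg adjustment and a threshold of 0.05. Spliced reads used TMM scaling and a minimum mean of 1 CPM. Intronic reads used library totals and a minimum mean of 10 reads. The ratio test fitted both kinds of read in 1 model with a term per library, at least 10 reads of each kind on average. SEs were approximated from the F statistic. All tests were tested on simulated data; the intron tests missed many 4-fold changes there, and a first requirement on their recovery was replaced by one on the estimated size. An exact permutation test of 2 libraries against 2 cannot reach 0.05 two-sided, so shares are described only.

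The genes and pathway lists were chosen with earlier results of these data known. Named are all 7 genes and, per pathway list and direction, the 2 genes with the smallest adjusted p; list counts are descriptions. Alternatives were other scalings and minimum counts, DESeq2 1.42.0, other sets of introns, a replicate block and leaving out each library; the last, for the share of intronic reads, was chosen after seeing the data.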

Additional observations from a re-analysis of the deposited data

How the results depend on the processing

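EGR1 and SRF kept the direction and call of their spliced reads in every alternative that gave a value. EGR1 has 1 intron, so it gave none without its most-read intron or with its least-read count subtracted, and none at a minimum of 5 CPM. Subtracting the least-read junction's count left 1 of the 7 genes higher and 0 lower in spliced reads (over all genes 2024 higher and 2134 lower). DUSP1 was then at -0.00087, and MYC and DUSP5 no longer passed (edgeR adjusted p = 0.629 and 0.191). TMM scaling of intronic reads gave 1597 higher and 1587 lower genes, with 1 of the 7 genes higher and 1 lower, and 2566 higher and 2322 lower introns, with 0 of the genes' introns higher and 2 lower. DESeq2 called 1 of the genes higher in intronic reads (over all genes 3567 higher and 192 lower). It called 0 of their introns higher and 0 lower (over all introns 4238 higher and 349 lower). With introns that overlap no annotated exon, 108 genes were lower in intronic reads and 47 in the ratio. A minimum of 20 reads left 3789 higher introns in intronic reads and 3188 in the ratio, with 0 of the genes' introns in either. In the ratio per gene it left 1 of the genes higher (4311 higher over all genes). A minimum of 5 left 1 of the genes' introns higher in intronic reads (6842 higher over all introns). Fewer features reached the higher minimum; the cause of the other shifts was not tested. Leaving out 1 library at a time, the genes lower in spliced reads numbered 1 to 3 and those higher in intronic reads 0 to 2 (over all genes 0 to 4310 higher and 0 to 318 lower). Their introns higher in intronic reads numbered 0 to 2 (over all introns 0 to 5745 higher and 0 to 636 lower), and in the ratio 1 to 2 (134 to 235 lower over all introns). The counts of 0 over all genes or introns came without an H3B-8800 library, with 3691 and 3538 genes and 4367 and 4280 introns at an unadjusted edgeR p under 0.05. Intronic reads in MYC intron 1 then changed by -0.19 to 0.11, and the ratio in MYC intron 2 by -0.43 to 0.20, none of which passed. The labels do not say whether replicate numbers mark a shared batch. Deviations of same-numbered libraries were nearly uncorrelated (0.04 over 6692 genes). With 2 libraries per group this cannot decide whether they were paired. With a replicate block, 3140 genes were higher and 3144 lower in spliced reads, against 3102 and 3097 without it. With that block, 0 of the genes' introns were higher in intronic reads (5262 higher over all introns). The difference in the share of intronic reads, left-out libraries being chosen there after seeing the data, ran from 0.561 to 3.75 points in DUSP1, 1.34 to 1.86 in MYC, 2.402 to 3.005 in SRF and 9.95 to 12.1 in DUSP5. In FOS and DUSP4 it was 0 without 1 of the H3B-8800 libraries, and in EGR1 it ran from -2.502 to 1.498. Too few reads kept 14 of the 19 introns out of the intron tests.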
